A study of Homo sapiens with 14 samples.

Results

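The genes described here are 57 ribosome biogenesis genes that the transcription factor MYC is known to activate, taken by gene name from a table of 62703 genes. They were read in 3 human prostate cancer cell lines kept for 3 days in 1.5 µM SEL120-34A, which blocks CDK8 and CDK19, the kinases of the Mediator complex, or in its solvent DMSO. LNCaP depends on androgen, 22Rv1 carries the androgen receptor but resists the receptor blocker enzalutamide, and PC3 lacks the receptor. LNCaP and 22Rv1 had 3 libraries in each arm, and PC3 had 1. BRB-seq was used, an assay that barcodes RNA early, pools the samples and sequences the 3′ end of each transcript. Levels are CPM (counts per library of fixed nominal size, corrected with TMM factors over all libraries). Only the 3′ end of a transcript is read, so the values were not divided by transcript length. No library had altered MYC, so the label of these genes as driven by MYC rests on prior knowledge and was not tested by the design.

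Ribosomes are assembled in the nucleolus. RNA polymerase I transcribes a long precursor RNA, small nucleolar ribonucleoproteins (snoRNPs) of the box C/D and box H/ACA classes modify it, and large sets of assembly factors cut it and fold it into the small and the large subunit. MYC raises transcription of genes in all of these steps, in part by binding the E-box, the palindrome CACGTG, near their start sites, and rapidly growing cancer cells commonly have enlarged nucleoli. By role, 4 of the genes were grouped as nucleolar scaffold, a label for abundant nucleolar proteins and regulators. The others encode the box C/D (3) and box H/ACA (4) snoRNP, RNA polymerase I and its cofactors (7), small subunit factors (20) and large subunit factors (19).

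Promoter sequence was used to see which of the genes carry the E-box. RefSeq promoters (GRCh38.p14, 250 bases before to 50 after each start) were found for 49 of the genes, and CACGTG, which reads the same on both strands, lay in 22 of them (44.9%). The motif was in 10.9% of protein-coding genes with such a promoter, in 27.3% of 88 other ribosome biogenesis genes and in 6.35% of 63 cytosolic ribosomal protein genes. A GC box (GGGCGG on either strand, wherever it lay) was in 75.5% of the genes and in 65.1% of protein-coding genes. Of the 25 E-boxes, 19 lay within 50 bases of the start and 14 after it, and EBNA1BP2, IMP4 and NOP10 had 2 each. Shown here, so that the placement can be compared, are 8 of these E-boxes within 50 bases of the start, from genes whose levels or changes are given below. Each line gives the motif in capitals with up to 12 bases on either side, on the strand of the gene.

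FBL, chr19:39846356-39846385: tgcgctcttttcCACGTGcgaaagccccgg
NOP10, chr15:34343130-34343159: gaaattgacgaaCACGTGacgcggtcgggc
IMP4, chr2:130342900-130342929: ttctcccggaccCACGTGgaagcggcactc
PNO1, chr2:68157885-68157914: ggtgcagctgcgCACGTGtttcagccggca
RRP9, chr3:51941892-51941921: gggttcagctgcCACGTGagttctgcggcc
GNL3, chr3:52686026-52686055: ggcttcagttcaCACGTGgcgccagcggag
MRTO4, chr1:19251807-19251836: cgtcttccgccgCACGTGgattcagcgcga
EBNA1BP2, chr1:43172241-43172260: gcgattcggtggCACGTGga

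The flanking bases differed from gene to gene. By role, the motif was in 10 of 19 small subunit and 7 of 15 large subunit genes with a promoter, but in 1 of 6 genes of RNA polymerase I. NCL, NPM1 and BRIX1, described below, had promoters without CACGTG in this window. NPM1 and BRIX1 held the variant CACGCG on either strand, and NCL held neither. No promoter was matched for NOP58, TCOF1, RRP12, RRP1B, RRS1, BOP1, DDX18 or NOLC1. A match describes the letters only and was not read as binding.

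**Figure D1:**
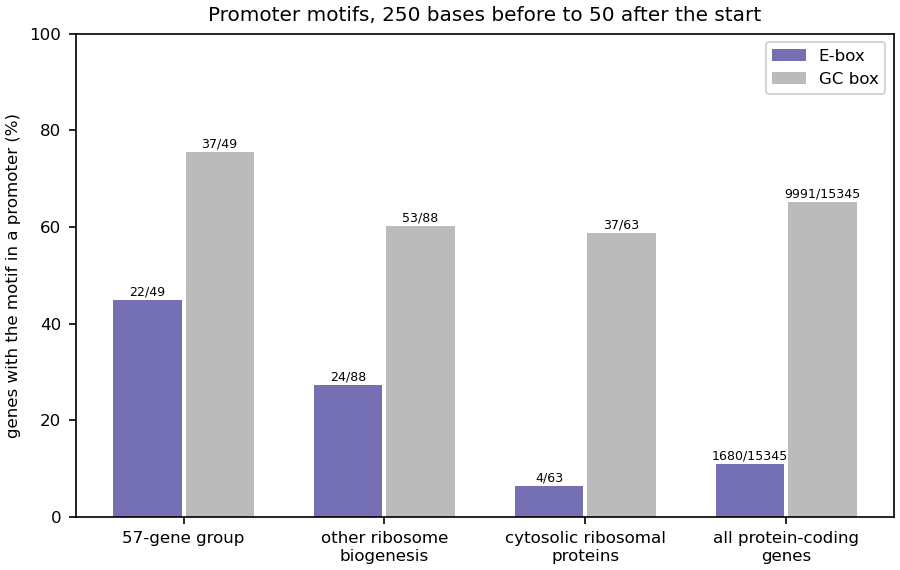
Percentage of genes with a matched promoter that hold the E-box CACGTG (purple) or a GC box (grey), for the 57-gene group and 3 comparison groups, with the number of genes over each bar. The E-box was in 44.9% of the group and 10.9% of protein-coding genes, while the GC box was in 75.5% and 65.1%.

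Total counts ranged from 246063 to 909176 per library, so 3 counts corresponded to 3.30 to 12.2 CPM. Summed androgen-responsive markers (7 genes) ran from 2461 to 2859 CPM in LNCaP DMSO, from 450 to 599 in 22Rv1 DMSO and to 102 in PC3 DMSO, while 7 genes of the PC3 type reached 4292 CPM in PC3 and at most 136 in the other DMSO libraries. Leukocyte markers (5 genes) were at 0 to 5.26 CPM and fibroblast markers (5 genes) at 0 to 35.9 CPM in LNCaP and 22Rv1 and up to 94.7 in PC3. Mitochondrial transcripts took 13.9% to 17.3% of counts in LNCaP DMSO and 16.5% to 23.3% in LNCaP SEL120-34A libraries, and 7.60% to 9.82% and 9.52% to 13.1% in the corresponding 22Rv1 arms. The labels do not say whether replicates came from separate cultures. The study's methods state at least 3 biological replicates as a general rule with exceptions, and do not name these libraries. The p-values measure the spread between these libraries, and the labels do not settle whether that spread is between cultures or technical.

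The depth per gene was modest. Over the 12 LNCaP and 22Rv1 libraries, 5 of the genes averaged under 10 counts per library, 26 had 10 to 30, 21 had 30 to 100 and 5 had over 100. The edgeR low-count filter kept 53 of the 57. UTP15 (131 counts in all libraries together), UTP20 (93) and PPAN (130) fell below it. NOP2, an RNA methyltransferase of the large subunit pathway, had 0 counts in all 14 libraries, and 477 of its last 500 exonic bases are shared on the same strand with ENSG00000285238, which also had 0 counts. The median standard error (SE) of a log2 fold change over the 53 genes was 0.266 in LNCaP and 0.262 in 22Rv1.

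A few abundant genes carried much of the group. NPM1, NHP2, NCL, FBL and POLR1D together made up 44.5% of its summed CPM, and NPM1 alone made up 16.0%. NPM1 (nucleophosmin, chr5:171387116-171411810), a nucleolar chaperone, has 49 named pseudogenes, so its counts may be split between copies. Summed over the 57 genes, levels were 5937 to 6472 CPM in LNCaP DMSO and 5180 to 5829 in LNCaP SEL120-34A libraries, with no overlap. Without NPM1 and NCL the sums were 4361 to 4569 and 4006 to 4441 CPM, which overlapped. In 22Rv1 the sums over all 57 genes were 5533 to 5938 CPM in DMSO and 4906 to 5576 in SEL120-34A libraries, which overlapped. Without NPM1 and NCL the 22Rv1 sums were 4249 to 4498 and 3962 to 4238 CPM, apart by a narrow gap. In PC3 the sum over all 57 genes was 5273 CPM in DMSO and 6163 CPM with SEL120-34A. As a share of all counts, the genes took 0.586% ± 0.0323 (SD, n = 3) in LNCaP DMSO and 0.491% ± 0.0348 with SEL120-34A, and 0.623% ± 0.0163 and 0.526% ± 0.0559 in 22Rv1. In these 2 lines the lower share stood beside a higher mitochondrial share of treated libraries, with overlapping ranges. In PC3 the mitochondrial share was 8.52% in DMSO and 9.41% with SEL120-34A, while the share of the genes was 0.533% and 0.605%. Summed cytosolic ribosomal protein genes were at 68808 to 80172 CPM in 22Rv1 DMSO and 88643 to 107038 with SEL120-34A. In LNCaP they were at 102930 to 109774 and 103997 to 113388 CPM. The part of either in the share of the genes was not tested. In bulk libraries, fewer cells of one kind and less RNA per cell cannot be told apart.

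**Figure D2:**
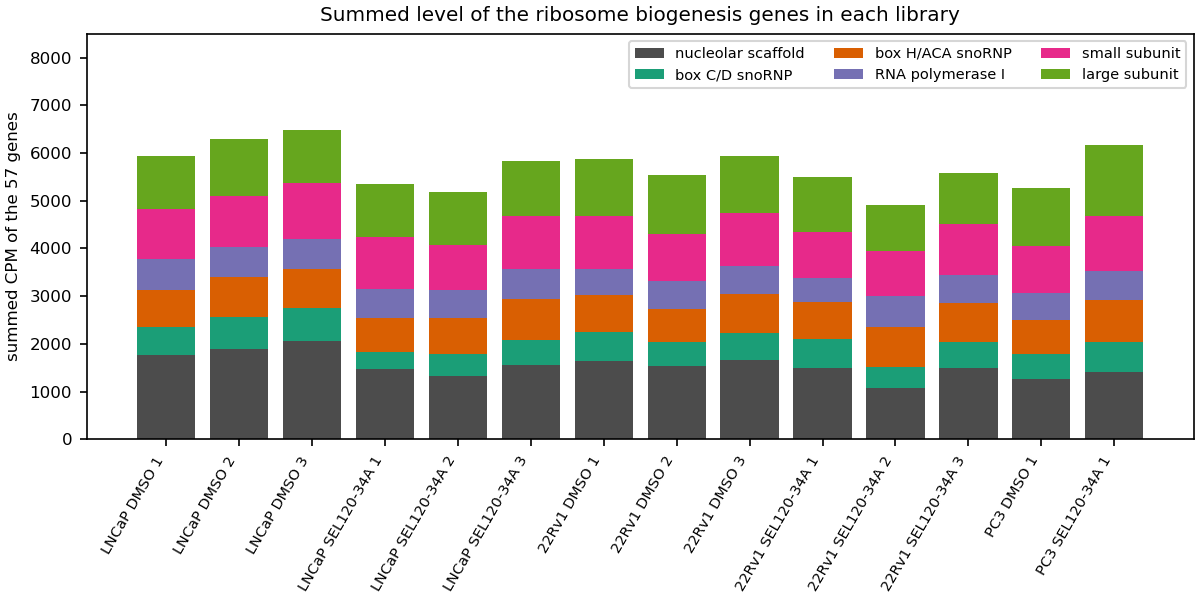
Summed CPM of the 57 genes in each of the 14 libraries, stacked by role. LNCaP DMSO libraries stand at 5937 to 6472 CPM, above the LNCaP SEL120-34A libraries at 5180 to 5829 (the arms overlap without NPM1 and NCL), whereas the PC3 library with SEL120-34A (6163) stands above its DMSO control (5273).

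The next question was which of the genes responded to the inhibitor in each line. In LNCaP, BRIX1 rose and no other gene of the group passed the test. In 22Rv1, the scaffold genes NOLC1 and NCL and the large subunit gene GNL3 fell, and none rose. With adjusted p under 0.05 in edgeR's quasi-likelihood test, that is 1 gene higher in LNCaP (1.89% of the 53 tested). Of all 7086 tested genes, 1.99% were called higher there and 0.776% lower. In 22Rv1, 3 genes were lower (5.66% of the 53), against 1.55% of all genes lower and 4.15% higher. The 0 genes called lower in LNCaP compare with 6 at unadjusted p under 0.05 (11.3% of the 53, against 5.63% of all genes). They also compare with 0 by DESeq2 and 0 by limma. The 0 called higher in 22Rv1 compare with 1 at unadjusted p under 0.05 (1.89% of the 53, against 11.1% of all genes), and with 0 by both other tools. Fitted changes were negative for 32 of the 53 genes in each line (60.4%), against 49.5% of all genes in LNCaP and 49.6% in 22Rv1. The median log2 fold change was -0.06 in LNCaP and -0.10 in 22Rv1, with 0.00 over all genes in both. Treated libraries lay wholly below controls for 10 of the 53 genes in LNCaP (18.9%, against 10.7% of all genes). In 22Rv1 they did so for 11 (20.8%, against 10.5%). They lay wholly above for 1 in LNCaP (1.89%, against 8.76%) and 2 in 22Rv1 (3.77%, against 12.4%).

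**Figure D3:**
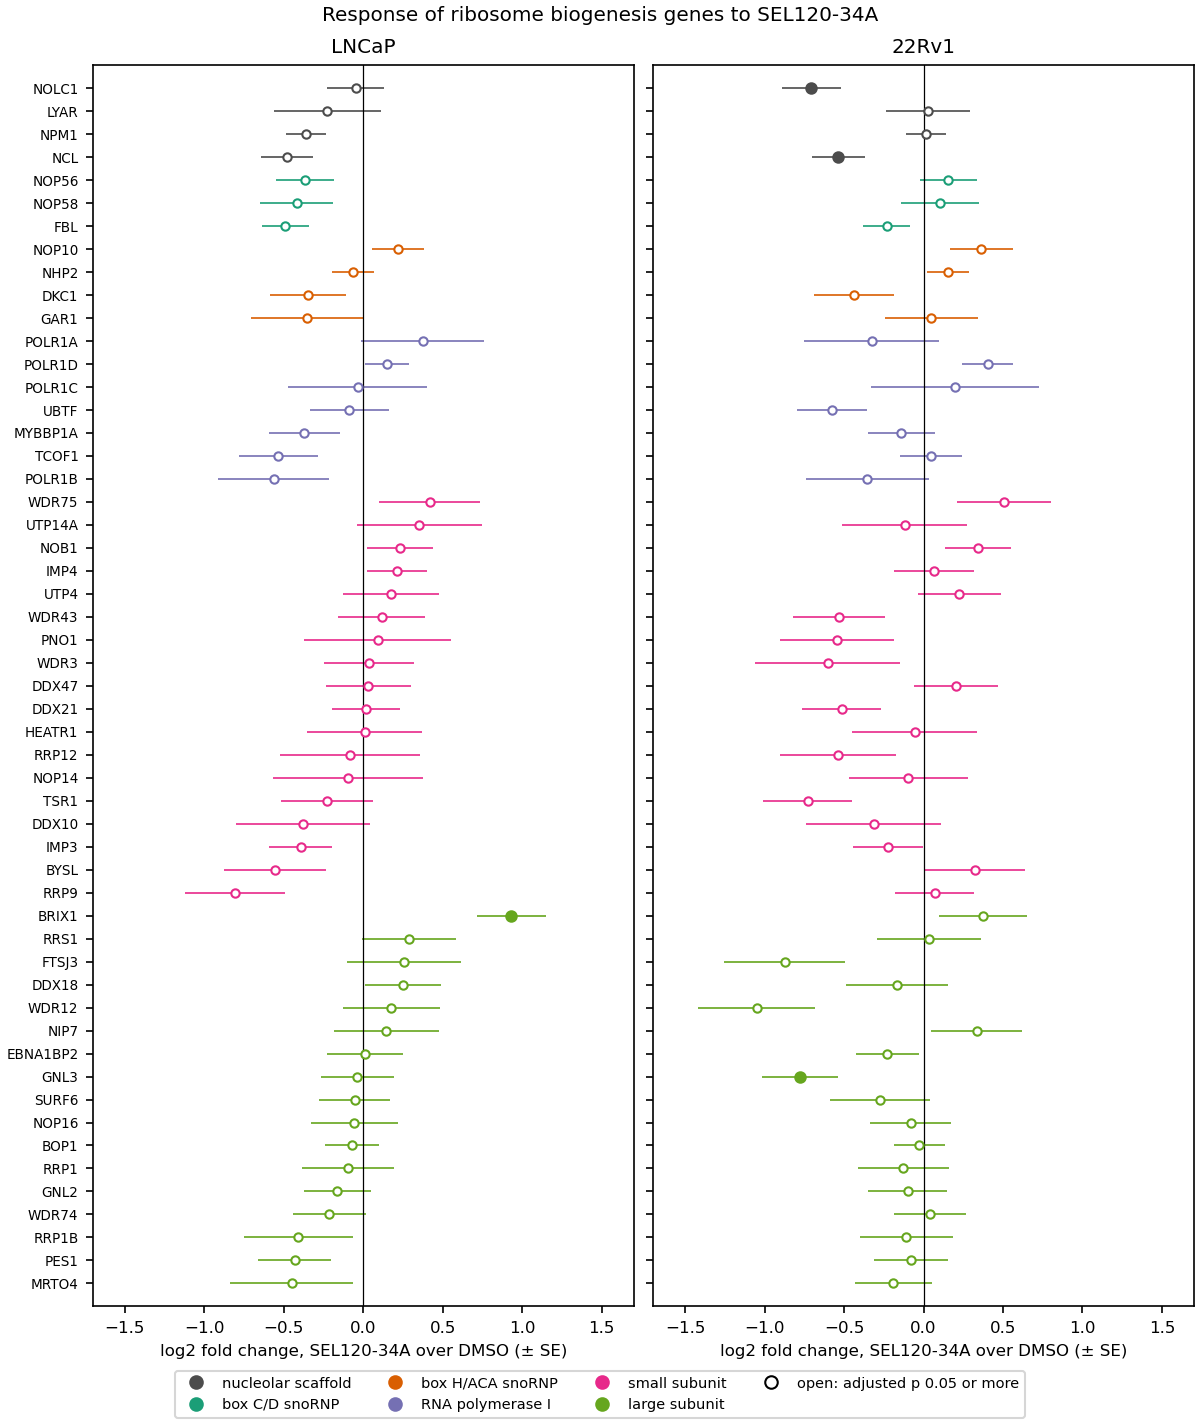
Log2 fold change (SEL120-34A over DMSO) with SE for the 53 tested genes in LNCaP (left) and 22Rv1 (right), coloured by role and ordered by the LNCaP change within a role. Filled points have an adjusted p under 0.05, namely BRIX1 in LNCaP (0.93) and NOLC1 (-0.71), NCL (-0.54) and GNL3 (-0.78) in 22Rv1.

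Of the 4 genes listed as nucleolar scaffold, 2 were called lower in 22Rv1 (1.55% of all genes were), with a median of -0.26. Both calls were lost without 22Rv1 SEL120-34A replicate 2. The list was drawn up with earlier results of these data known, so the share is a description only. The other 2, NPM1 and LYAR, did not have a negative change there. In LNCaP 0 of 4 were called, and their median was -0.30. NCL encodes nucleolin (chr2:231453531-231483641), which binds precursor ribosomal RNA. In 22Rv1 it was at 530.1, 518 and 615 CPM in DMSO and at 446, 210.3 and 454 CPM in SEL120-34A libraries. All treated libraries lay below all controls, and the second, which was the shallowest library of the study, was lowest by a wide margin. The log2 fold change was -0.54 ± 0.167 (SE, adjusted p = 0.0472). Without that library it was -0.29 (adjusted p = 0.401), and it also missed the threshold without 22Rv1 DMSO replicate 3 (-0.47, 0.162) or LNCaP DMSO replicate 2 (-0.53, 0.0525). Over 21 alternatives the adjusted p ran from 0.00718 to 0.401, and 6 of them lost the call. In LNCaP, NCL was at 572, 573 and 699 CPM in DMSO and at 530.2, 393 and 391 CPM with SEL120-34A. The arms did not overlap there either, with a change of -0.48 ± 0.163 that missed the threshold (adjusted p = 0.121, 0.0249 to 0.0478 under 4 of the alternatives).

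NOLC1 encodes Nopp140, a chaperone of snoRNPs (chr10:102152176-102163871). In 22Rv1 it was at 141, 189 and 162 CPM in DMSO and at 110.2, 77.3 and 106 CPM in SEL120-34A libraries. Every treated library was below every control, and the fold change was 0.613 (log2 -0.71 ± 0.188, adjusted p = 0.0180). Leaving out 22Rv1 DMSO replicate 2 (-0.62, adjusted p = 0.0742) or 22Rv1 SEL120-34A replicate 2 (-0.58, 0.138) ended the call, and over 21 alternatives the adjusted p ran from 0.00597 to 0.245. In LNCaP NOLC1 was at 152, 120.4 and 130.0 CPM in DMSO and at 117, 130.1 and 135 CPM with SEL120-34A. Those arms overlapped, and the 95% interval of the log2 change ran from -0.41 to 0.32.

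NPM1, the most abundant of the genes, was at 1004, 1181 and 1204 CPM in LNCaP DMSO and at 788, 781 and 997 CPM in LNCaP SEL120-34A libraries. The treated libraries were all lower, by a narrow gap at the nearest pair, with a log2 change of -0.36 ± 0.125 (adjusted p = 0.126). It was called lower with library totals (-0.45, adjusted p = 0.0357) and without LNCaP SEL120-34A replicate 3 (-0.48, 0.0299). In 22Rv1 it was at 913, 766 and 825 CPM in DMSO and at 876, 734 and 884 CPM with SEL120-34A, values that interleaved (log2 change 0.02, 95% interval -0.24 to 0.27). LYAR, a nucleolar regulator of growth, changed by -0.23 in LNCaP and 0.03 in 22Rv1 on the log2 scale, neither called.

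The box C/D snoRNP methylates ribosomal RNA. Its 3 genes were all negative in LNCaP (median -0.42), with 0 called, and had a median of 0.10 in 22Rv1, with 0 called. FBL encodes fibrillarin, the methyltransferase itself (chr19:39834458-39846379). In LNCaP it was at 355, 416 and 424 CPM in DMSO and at 230.0, 271 and 317 CPM in SEL120-34A libraries. The arms were apart, with a log2 change of -0.49 ± 0.148 (adjusted p = 0.0621) that passed under 7 of the alternatives, at 0.0208 to 0.0491. In 22Rv1, FBL was at 424, 303 and 355 CPM in DMSO and at 331, 279 and 297 CPM with SEL120-34A, which overlapped (-0.23, 95% interval -0.53 to 0.07). The scaffold partners NOP56 and NOP58 changed by -0.37 and -0.42 in LNCaP and by 0.16 and 0.10 in 22Rv1 on the log2 scale, with adjusted p from 0.364 to 0.872.

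The box H/ACA snoRNP isomerises uridine to pseudouridine, and 0 of its 4 genes were called in either line. DKC1, the pseudouridine synthase dyskerin, changed by -0.35 in LNCaP and -0.44 in 22Rv1 (adjusted p = 0.559 and 0.353). NHP2, its most abundant gene and a core protein of the particle, was at 466, 568 and 484 CPM in LNCaP DMSO and at 468, 445 and 498 CPM in LNCaP SEL120-34A libraries. In 22Rv1 it was at 542, 449 and 582 CPM in DMSO and at 551, 605 and 588 CPM with SEL120-34A. Both pairs of arms overlapped, and the log2 changes were -0.06 (95% interval -0.33 to 0.20) and 0.15 (-0.11 to 0.42). NHP2 shares 414 of its last 500 exonic bases with RMND5B on the other strand.

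Among the 7 genes of RNA polymerase I and its cofactors, 0 were called in either line, with log2 changes from -0.56 to 0.37 in LNCaP and from -0.58 to 0.40 in 22Rv1. POLR1D, a subunit shared with RNA polymerase III (chr13:27620742-27744237), was at 161, 165 and 175 CPM in 22Rv1 DMSO and at 201, 266 and 203 CPM in 22Rv1 SEL120-34A libraries. Treated values were all higher, and the log2 change of 0.40 ± 0.160 missed the threshold (adjusted p = 0.137). UBTF, which bends ribosomal DNA for the polymerase, was at 104, 135 and 116 CPM in 22Rv1 DMSO and at 68.9, 81.5 and 85.6 CPM with SEL120-34A, again apart (-0.58, adjusted p = 0.121, called lower with library totals and with at least 10 counts in every library). In LNCaP their changes were 0.15 and -0.09. TCOF1, the polymerase cofactor treacle, changed by -0.53 in LNCaP (adjusted p = 0.316) and 0.05 in 22Rv1.

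Of the small subunit factors, 18 of 20 were tested and 0 were called in either line. Their changes ran from -0.81 to 0.42 in LNCaP (median 0.03) and from -0.73 to 0.51 in 22Rv1 (median -0.11). RRP9, which binds the U3 snoRNA, was at 46.5, 49.7 and 60.1 CPM in LNCaP DMSO and at 35.1, 32.5 and 23.2 CPM in LNCaP SEL120-34A libraries. Its arms were apart, on 9 to 43 counts per library (log2 change -0.81 ± 0.313, adjusted p = 0.196), while the 22Rv1 change was 0.07. IMP3, the most abundant gene of this role and a U3 partner, changed by -0.40 in LNCaP (adjusted p = 0.379) and -0.22 in 22Rv1 (0.644). TSR1, a late maturation factor, changed by -0.23 and -0.73 (0.801 and 0.124).

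Large subunit factors went both ways. Of 17 of 19 tested, 1 rose in LNCaP and 1 fell in 22Rv1, with changes from -0.45 to 0.93 and from -1.05 to 0.38. BRIX1 (chr5:34915677-34925996), which takes part in assembly of the large subunit, was at 64.8, 78.5 and 88.1 CPM in LNCaP DMSO and at 168, 136 and 135 CPM in LNCaP SEL120-34A libraries. The highest control stood well below the lowest treated library, and the level was 1.91-fold higher (log2 0.93 ± 0.215, adjusted p = 0.00897). Leaving out the first DMSO library (0.81, adjusted p = 0.0646) or the first SEL120-34A library (0.83, 0.0757) ended the call, and over 21 alternatives the adjusted p ran from 0.00152 to 0.177. In 22Rv1 BRIX1 was at 47.1, 63.6 and 38.2 CPM in DMSO and at 82.7, 64.4 and 39.9 CPM with SEL120-34A. Those arms overlapped (0.38, 95% interval -0.18 to 0.93).

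GNL3 encodes nucleostemin, a nucleolar GTPase of proliferating cells (chr3:52681156-52694497). In 22Rv1 it was at 108, 84.2 and 83.5 CPM in DMSO and at 55.1, 38.6 and 59.9 CPM in SEL120-34A libraries. The arms were apart, and the log2 change was -0.78 ± 0.242 (adjusted p = 0.0464), a call that was lost in 10 of 20 alternatives, among them leaving out any 1 of the 6 22Rv1 libraries or LNCaP DMSO replicate 2 (-0.64 to -0.88, adjusted p 0.0521 to 0.222). In LNCaP, GNL3 was at 71.8, 75.9 and 72.7 CPM in DMSO and at 85.8, 70.5 and 59.1 CPM with SEL120-34A, so the arms overlapped (-0.04, 95% interval -0.50 to 0.43). WDR12, a partner of BOP1 and PES1, had the most negative change in 22Rv1 (-1.05 ± 0.367, adjusted p = 0.0814), on 22 to 47 counts in the controls and 11, 2 and 11 counts in the treated libraries. BOP1 itself, the most abundant gene of this role, changed by -0.07 in LNCaP and -0.03 in 22Rv1, with 95% intervals of -0.41 to 0.27 and -0.35 to 0.30.

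**Figure D4:**
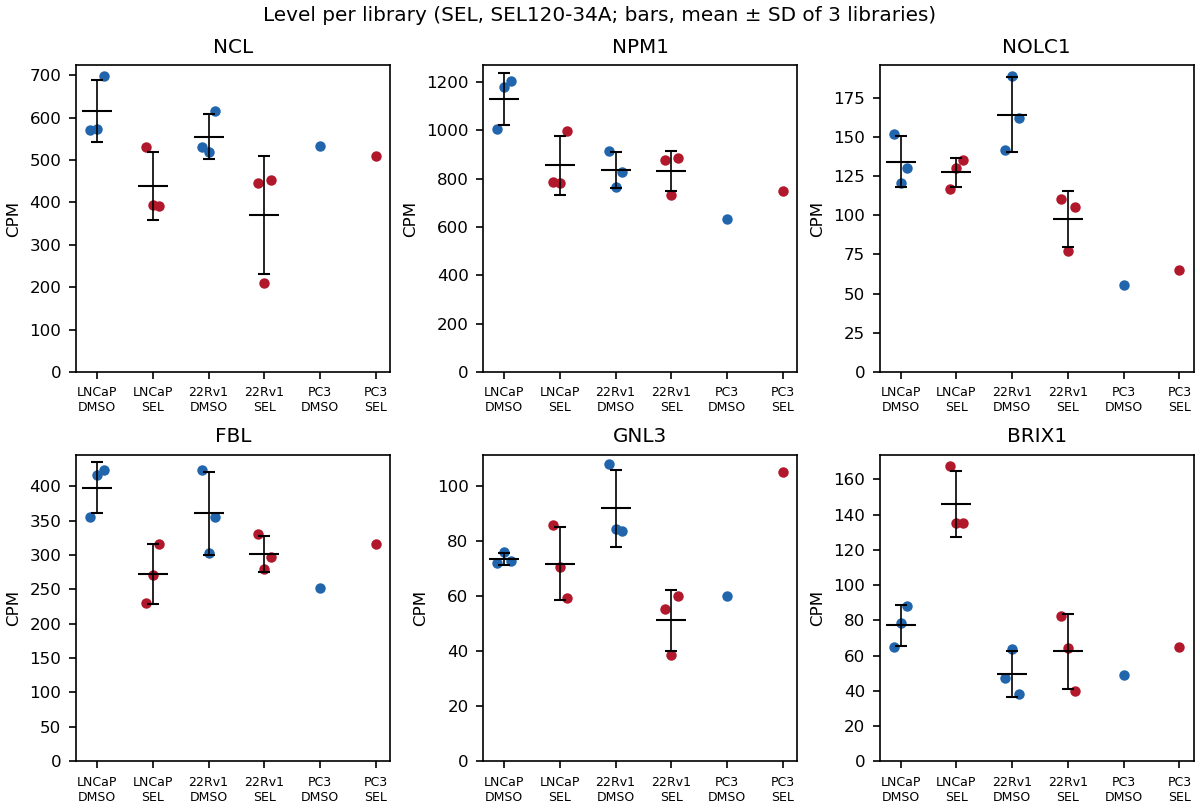
CPM of 6 genes in every library, blue for DMSO and red for SEL120-34A, with bars for the mean ± SD of 3 libraries and single points for PC3. BRIX1 in LNCaP lies at 64.8 to 88.1 in DMSO and 135 to 168 with SEL120-34A, and NOLC1 in 22Rv1 at 141 to 189 and 77.3 to 110.2.

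Both lines were then read together and against each other. Averaged over LNCaP and 22Rv1, NCL and FBL fell and BRIX1 rose. Their log2 changes were -0.51 ± 0.117 for NCL (adjusted p = 0.00433), -0.36 ± 0.105 for FBL (0.0290) and 0.65 ± 0.176 for BRIX1 (0.0168). This made 2 genes lower (3.77% of the 53, against 2.13% of all genes) and 1 higher (1.89%, against 3.88% of all genes). With library totals in place of TMM it became 5 lower and 0 higher, beside 359 lower and 148 higher of all 7086 genes. The NCL call was lost in 1 of 20 alternatives (limma on the deposited log2 values, adjusted p = 0.113, the highest of a range from 2.08e-05). FBL lost its call in 9 of 20, including removal of replicate 2 or 3 of LNCaP DMSO, 1 or 2 of LNCaP SEL120-34A, 1 of 22Rv1 DMSO, or 2 or 3 of 22Rv1 SEL120-34A (adjusted p 0.0541 to 0.0813, and 0.00265 to 0.0813 over all 20). BRIX1 lost its call in 7 of 20, including removal of replicate 1 of LNCaP SEL120-34A, 3 of 22Rv1 DMSO or 1 of 22Rv1 SEL120-34A (0.0527 to 0.169, and 0.00403 to 0.169 over all 20). On this average, 38 of the 53 genes were negative (71.7%, against 50.5% of all genes), with a median of -0.15.

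The difference between the 2 responses was not called for any of the genes by edgeR, DESeq2 or limma (0.268% of all genes were called higher and 0.466% lower in edgeR). At unadjusted p under 0.05 there were 4 genes with a higher change in LNCaP (7.55% of the 53, against 5.36% of all genes), namely WDR12, FTSJ3, GNL3 and NOLC1. There were 3 with a lower one (5.66%, against 6.08% of all genes), namely RRP9, NOP56 and NPM1. The difference in log2 change, LNCaP minus 22Rv1, was 1.23 for WDR12 (95% interval 0.25 to 2.20, adjusted p = 0.303) and 0.66 for NOLC1 (0.13 to 1.19, adjusted p = 0.312). For NCL it was 0.06, with an interval from -0.42 to 0.53. The intervals are wide enough that a call in one line alone does not show a response particular to it.

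The responses were set beside the E-box. The 20 tested genes with CACGTG had a median log2 change of -0.08 in LNCaP and -0.11 in 22Rv1, and the 25 with a promoter lacking it had -0.06 and -0.08. Called genes were found among both. With the motif were GNL3, called in 22Rv1, and FBL, called only in the average of the lines. Without it were NCL, called in 22Rv1 and the average, and BRIX1, called in LNCaP and the average. This is a description without a test.

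MYC itself was read beside its targets. It was at 499, 565 and 422 CPM in LNCaP DMSO and at 600.4, 594 and 456 CPM in LNCaP SEL120-34A libraries. In 22Rv1 it was at 775, 934 and 788 CPM in DMSO and at 898, 923 and 1033 CPM with SEL120-34A. Both pairs of arms overlapped and neither change was called, with mean levels of 495 ± 71.7 and 550.1 ± 81.4 CPM in LNCaP (SD, n = 3) and of 833 ± 88.0 and 951 ± 71.4 CPM in 22Rv1. Of the 11 genes of the MYC network, 7 were tested and 0 were called in either line. Averaged over the lines, 1 of the 7 was called higher (3.88% of all genes were) and 0 lower.

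Other gene lists of the same pathway give the setting. Of 103 other ribosome biogenesis genes, 84 were tested, of which 1 rose in LNCaP (1.99% of all genes rose there) and 0 were called in 22Rv1, with medians of -0.10 and -0.06. The one that rose was MPHOSPH6, an exosome cofactor in ribosomal RNA trimming, at 132, 113 and 152 CPM in DMSO and at 242, 260.2 and 211 CPM with SEL120-34A (log2 change 0.84 ± 0.184, adjusted p = 0.00496). Its arms were far apart in LNCaP, and its 22Rv1 change was -0.34 (adjusted p = 0.666). Of 19 alternatives that tested MPHOSPH6 in LNCaP, 3 lost the call, namely limma (adjusted p = 0.551), equal depth (0.0647) and removal of the second SEL120-34A library (0.0656), and the lowest adjusted p was 0.000869. Of 75 tested genes for proteins of the cytosolic ribosome, 26 rose in 22Rv1 (4.15% of all genes rose) and 0 fell, with a median of 0.36, while 0 were called in LNCaP, with a median of 0.05. Of 20 proliferation genes, 4 fell in LNCaP (RRM2, CDC20, BIRC5 and UBE2C, where 0.776% of all genes fell) and 3 in 22Rv1 (MCM4, MKI67 and CDC20, where 1.55% fell), with medians of -0.40 and -0.03. Summed proliferation genes were at 3099 to 3396 CPM in LNCaP DMSO and at 1977 to 2659 with SEL120-34A, and their part in the levels of the ribosome biogenesis genes was not tested.

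Without inhibitor, the share of the genes that differed between the 2 lines was near or below that of all genes. In LNCaP DMSO against 22Rv1 DMSO libraries, 11 were higher (20.8% of those tested, against 24% of all genes) and 9 lower (17.0%, against 25%). With library totals in place of TMM the split was 6 higher and 20 lower. Of all 7086 tested genes, 1211 were then called higher and 2362 lower. Higher in LNCaP were genes of all roles, namely NPM1, NOP58, NOP10, POLR1D, WDR3, IMP3, IMP4, DDX18, GNL2, BRIX1 and SURF6. Lower were LYAR, UBTF, TCOF1, NOP14, RRP12, UTP4, PNO1, MRTO4 and EBNA1BP2. MYC was lower in LNCaP by 0.75 on the log2 scale (adjusted p = 7.83e-06).

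The strongest difference by p-value was that of POLR1D, at 334, 367 and 326 CPM in LNCaP DMSO and at 161, 165 and 175 CPM in 22Rv1 DMSO. The lines did not overlap, and the fold was 2.03 (log2 1.02 ± 0.142, adjusted p = 1.07e-07). NOP10, the smallest protein of the box H/ACA core, was at 200.0, 175 and 207 CPM against 108, 89.8 and 113 CPM. It was higher in LNCaP by 0.91 ± 0.170 (adjusted p = 2.36e-05). IMP4, a U3 partner, was higher by 1.01 ± 0.197, SURF6, a nucleolar matrix protein, by 1.14 ± 0.228, and WDR3, a small subunit factor, by 1.14 ± 0.297. WDR3 shares all of its last 500 exonic bases with SPAG17 on the other strand.

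MRTO4, a stalk assembly factor of the large subunit, differed most in the other direction. It was at 23.9, 31.4 and 23.8 CPM in LNCaP DMSO and at 104, 67.4 and 77.5 CPM in 22Rv1 DMSO. The lines were far apart (log2 -1.67 ± 0.258, adjusted p = 8.21e-07). PNO1, a late small subunit factor, differed by -1.38 ± 0.345, EBNA1BP2, a large subunit factor, by -0.99 ± 0.192, UBTF by -0.88 ± 0.201 and TCOF1 by -0.79 ± 0.191. Of all 20 genes called between the lines, 13 kept the call at equal depth, 14 with limma, 15 with the DESeq2 Wald test and 11 with at least 10 counts in every library. Among those with values here, TCOF1 and WDR3 lost it at equal depth (adjusted p = 0.0718 and 0.219) and PNO1 with limma (0.0867). UBTF and TCOF1, both of which serve RNA polymerase I, were thus lower in LNCaP while its subunit POLR1D was higher.

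**Figure D5:**
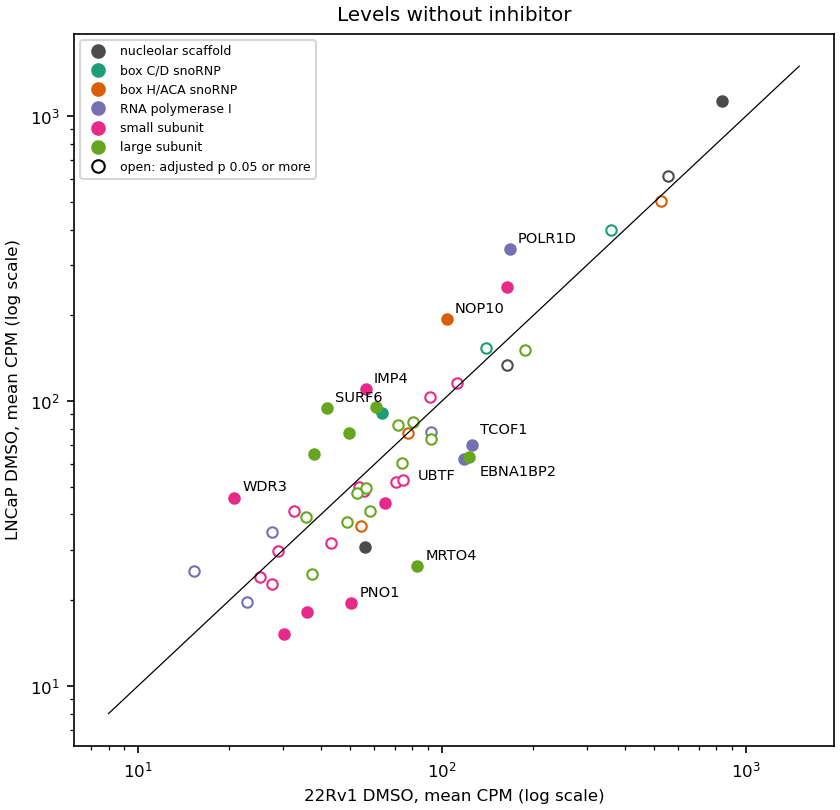
Mean CPM of the 53 tested genes in LNCaP DMSO (vertical) against 22Rv1 DMSO (horizontal), 3 libraries each, both axes on a log scale, with a line of equal levels. Filled points have an adjusted p under 0.05, 11 above the line and 9 below it, and the 5 of each with the smallest adjusted p are named.

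PC3 had 1 library per arm, so its values have no replicate check and no test. Of the 54 genes with at least 10 counts in both libraries, 39 had a log2 ratio above 0 (72.2%, against 56.1% of all 7089 such genes), and their median ratio was 0.26, against 0.05 for all genes. NPM1 had 581 counts in DMSO (exact Poisson interval 535 to 630.2) and 427 with SEL120-34A (387 to 469), or 633 and 749 CPM. FBL was at 253 and 316 CPM, a log2 ratio of 0.32 (counting interval 0.03 to 0.61), and GNL3 at 59.9 and 105 CPM, a ratio of 0.81 (0.26 to 1.37). NCL was at 532 and 510.3 CPM, a ratio of -0.06 (-0.28 to 0.15), and BRIX1 at 49.0 and 64.9 CPM (0.41, -0.26 to 1.07). FBL and GNL3 were thus higher in the treated PC3 library, where NCL was about level, and these intervals cover counting error only. MYC was at 708 and 1084 CPM.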

How the data were processed

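BRB-seq libraries of LNCaP, 22Rv1 and PC3 cells were analysed from files deposited by the authors. The authors aligned and counted reads with STARsolo on GRCh38.p13 and deposited raw counts for 62703 genes. Whether molecular identifiers were collapsed, and which strand setting was used, is not given in the sources used here. The authors also deposited log2 CPM values for 9638 genes, used in 1 alternative. Growth conditions in the labels name 22Rv1 for every sample.

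Members and gene lists were chosen with earlier results of these data known. The 12 LNCaP and 22Rv1 libraries were fitted in 1 edgeR 4.0.16 model (R 4.3.3) of 4 groups with TMM, the default low-count filter (7086 genes) and the quasi-likelihood F-test, two-sided, with 8 residual degrees of freedom. Benjamini-Hochberg adjustment covered every tested gene, with a threshold of 0.05. Intervals are 95%. Each count had a precision limited by totals of 246063 to 909176, and floors of 3 counts and Poisson intervals cover counting error only. Counting intervals assume independent counts, which could not be checked without knowing whether molecular identifiers were collapsed. PC3 entered no model. The model was tested on simulated data. At a simulated log2 change of 1.5 it recovered 92.9% of changed genes in LNCaP and 87.5% in 22Rv1. Of the genes called there, 3.19% in LNCaP and 6.40% in 22Rv1 were false, the latter above the threshold of 0.05. At 0.5 it recovered 5.29% and 1.55%, with 9.09% and 0% of the called genes false. A gene not called here is thus not shown to be unchanged.

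Genes named were those past the threshold in any treatment contrast, up to 5 higher and 5 lower between the DMSO groups, the most abundant of each role, MYC, and called genes of the other biogenesis list. RRP9, WDR12, TSR1, NOP56, NOP58, DKC1, LYAR, FTSJ3, the uncalled values of other named genes and the proliferation genes were named after their values were seen. Promoters were RefSeq's and coordinates GENCODE's, both on GRCh38. Alternatives used DESeq2 1.42.0, limma 3.58.1, other scalings and filters, a replicate block, equal depth (246063 counts), each line alone and each library left out.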

Additional observations from a re-analysis of the deposited data

How the results depend on the processing

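No called gene changed direction under any alternative run. Of the values of named genes, 952 kept their side of the threshold, 17 came to pass it and 43 no longer did. These values include those of genes not called in the main fit, so they do not measure how stable the calls were. Treatment calls were lost in 1 of 20 alternatives (NCL, average of the lines) to 10 of 20 (GNL3, 22Rv1). Counts of called genes did change. Genes called higher in LNCaP became 0 with limma and at equal depth, and 0 to 1 when 1 library was left out. Genes called lower in LNCaP became 2 with library totals, no filter, the replicate block or the line alone, 1 with at least 10 counts in every library, and 0 to 2 when 1 library was left out. Genes called lower in 22Rv1 became 1 with the DESeq2 Wald test, limma or equal depth, and 0 to 4 when 1 library was left out. For the average of the lines, genes higher became 0 with library totals, no filter, limma and equal depth (0 to 1 with 1 library left out), and genes lower became 5 with library totals, 0 with limma and 1 at equal depth (1 to 3 with 1 library left out). Between the DMSO groups, genes higher became 6 with library totals (8 to 11 with 1 library left out), and genes lower became 20 with library totals, 4 with at least 10 counts in every library and 5 at equal depth (7 to 9 with 1 library left out). Of all 7086 genes, library totals called 90 lower in LNCaP, and 148 higher and 359 lower in the average. Between the DMSO groups that scaling called 1211 higher and 2362 lower.

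Library totals moved the median of all genes to -0.083 in LNCaP, -0.14 in 22Rv1, -0.12 in the average and -0.24 between the DMSO groups, where the medians of the 53 genes were -0.15, -0.25, -0.27 and -0.28. Negative changes then numbered 37 in LNCaP and 41 in 22Rv1 of 53. With no filter the medians were -0.14 in LNCaP and -0.16 in 22Rv1, over 56 genes. The median between the DMSO groups was 0.076 with at least 10 counts in every library and -0.17 at equal depth. When 1 library was left out, medians ran from -0.12 to -0.06 in LNCaP, -0.16 to -0.03 in 22Rv1, -0.19 to -0.14 in the average, -0.06 to 0.08 for the difference and -0.21 to -0.051 between the DMSO groups. Without NPM1 and NCL the share of counts was 0.422% (LNCaP DMSO), 0.374% (LNCaP SEL120-34A), 0.473% (22Rv1 DMSO), 0.407% (22Rv1 SEL120-34A), 0.415% (PC3 DMSO) and 0.481% (PC3 SEL120-34A). Counting CACGCG on either strand as well, 67.3% of the 49 genes with a promoter held a motif. The same count gave 26.5% of protein-coding genes and 52.3% of other ribosome biogenesis genes. Why these values moved was not tested.

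Replicate numbers do not say that libraries were handled together, and same-numbered libraries correlated at -0.03 to 0.38 in their deviations from the group means, with 6 of 12 closest to their own number. The replicate block added FBL and NCL as lower in LNCaP (2 calls) and changed no call in 22Rv1 or the average. Depth limits the smaller changes (median SE 0.266 in LNCaP and 0.262 in 22Rv1).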
